A study of Mus musculus with 26 samples.

Results

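AI506816 and BC057675 are 2 of the 31735 gene symbols found in every count file of a study of the mouse accumbens nucleus. They were chosen by their levels in these libraries, near absence from total input RNA and high values in immunopurified RNA, so their height over input is a property of the choice and is described here without a test. The question followed below is how the levels of both transcripts ran over the library sets and treatment groups, next to Drd2 and to genes of blood vessels.

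All animals carried the Drd2-TRAP CP101 transgene, in which control sequences of the dopamine D2 receptor gene drive a ribosomal protein L10a fused to EGFP. The strain was FVB/N-Swiss Webster crossed to C57BL/6 for at least 9 generations. The immunopurified libraries comprised 5 from mice that took cocaine without escalating intake (nonescalating), 2 from mice with escalating intake, 3 from mice that took saline, 8 from nonescalating mice after withdrawal and 6 from saline mice after withdrawal. In the 2 remaining libraries, 1 from nonescalating cocaine mice and 1 from saline mice, input RNA was sequenced. By their library numbers the samples form 2 runs, called set 2 (5 nonescalating withdrawal and 3 saline withdrawal libraries) and set 1 (all others). Groups follow the sample titles, but the description field of the 5 nonescalating libraries also carries withdrawal. Each comparison with that group depends on the reading by title. The labels give no age, sex, dose, length of withdrawal or pooling of animals. Since no label names separate animals, each p-value measures the spread between these libraries.

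In translating ribosome affinity purification, ribosomes that carry the tag are pulled down with antibodies against EGFP, and the RNA bound to them is sequenced. The D2 receptor marks the medium spiny neurons of the indirect pathway, which also make the adenosine receptor Adora2a and the opioid precursor Penk, while Drd1 marks the direct pathway. Long noncoding transcripts can be found in such pull-downs whether or not they are translated, and the method does not measure protein.

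AI506816 is annotated in GENCODE M21 as a processed transcript, a class of noncoding RNA, on the minus strand of chromosome 5 at 23698296 to 23712667 (GRCm38, mm10). It has 5 annotated transcripts, whose exons together cover 4479 bases. Mir3096, named as a microRNA gene but typed as a snoRNA in GENCODE M21, lies inside an intron at 23710991 to 23711061 and has no row in the count files. By the GENCODE coordinates, the nearest gene at lower coordinates is Srpk2, a kinase of splicing factors, 13679 bases away. At higher coordinates it is Pus7, a pseudouridine synthase of RNA, 27981 bases away. The RefSeq model of AI506816 reaches lower, to 23692261, so the distance to Srpk2 and the exon length depend on the model. BC057675 matched neither the GENCODE nor the RefSeq table used here, so it is given by its symbol alone. The 300 bases around the start of AI506816 (chr5:23712618-23712917, minus strand, RefSeq on GRCm38.p6) are shown as the annotated start of AI506816 and may differ from the gene model behind the counts, with the 26 bases of exon 1 in capitals. The first 3 exons of transcript AI506816-205 (GENCODE M21, GRCm38), joined as in the spliced RNA with exon 2 in capitals, show the short exons that precede a last exon of 2701 bases.
AI506816 promoter: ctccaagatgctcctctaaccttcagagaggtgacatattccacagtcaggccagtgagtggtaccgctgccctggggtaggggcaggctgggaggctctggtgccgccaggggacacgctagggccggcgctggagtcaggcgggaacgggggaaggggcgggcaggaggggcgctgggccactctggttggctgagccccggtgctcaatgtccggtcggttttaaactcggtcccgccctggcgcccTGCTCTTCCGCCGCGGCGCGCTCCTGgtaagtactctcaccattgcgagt
AI506816-205 exons 1 to 3: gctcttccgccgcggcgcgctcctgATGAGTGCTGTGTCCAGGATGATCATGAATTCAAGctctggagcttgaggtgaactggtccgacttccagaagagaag

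The promoter window was 66.3% G or C, against a median of 52.7% over promoters of the same length, and 84.4% of promoters had less. A search of both strands found the motif GGGCGG at 2 places, and 35.7% of 32851 promoters held at least 1 match. CCAAT had no match in this window and was present in 37.4% of promoters. The same was true of the E-box CACGTG, present in 7.15%. The TATA motif TATAAA had none either, and 13.6% of promoters held it. No readout of binding or chromatin was measured here.

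Gene counts per immunopurified library ran between 1.53 and 17.4 M (M for 1e6 counts), with a median of 3.25 M, and the nonescalating and saline inputs held 37.2 and 4.66 M. The pull-down was checked on markers: 7 D2 neuron genes summed to 1159 to 9428 CPM (counts per M, scaled with TMM factors) in immunopurified libraries, against 1682 and 1227 CPM in the inputs. The 7 genes of D1 neurons summed to 71.5 to 203 CPM in immunopurified libraries, against 419 to 456 CPM in the inputs. Vascular genes also ran mostly above input: 19 of them summed to 460 to 11244 CPM in immunopurified libraries (median 3285 CPM). Their sums in the nonescalating and saline inputs were 249 and 506 CPM, so height over input was not confined to D2 neuron genes. Replicate 4 of the nonescalating group stood apart with 243 CPM of Drd2, under both inputs. Replicate 1 of saline had the highest sum of vascular genes, 11244 CPM, and replicate 5 of nonescalating withdrawal in set 2 the highest level of both transcripts, so values without these 3 libraries are given beside the relations, the set difference and the group differences whose sign they turn. In bulk RNA, fewer cells of a type and less RNA per cell cannot be told apart.

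AI506816 was counted in every library. In the nonescalating group it had 134, 45.7, 690, 144 and 431 CPM in replicates 1 to 5. Escalating libraries had 139 and 411 CPM, and saline libraries 119, 382 and 534 CPM. These 3 groups overlapped throughout, and the lowest of all 24 immunopurified libraries was replicate 2 of the nonescalating group. After withdrawal, nonescalating libraries had 445, 275, 1020, 858 and 2531 CPM in set 2 and 150, 214 and 551 CPM in set 1. Saline withdrawal libraries had 714, 1002 and 747 CPM in set 2, against 308, 855 and 157 CPM in set 1. Replicate 5 of nonescalating withdrawal in set 2 lay far above every other library, and the withdrawal groups overlapped within each set.

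BC057675 ran at similar read numbers with a smaller spread. Its level was 299, 126, 524, 440 and 330 CPM in the nonescalating libraries. The escalating libraries had 296 and 282 CPM, and the saline libraries 260, 303 and 564 CPM. The nonescalating libraries enclosed both escalating libraries, and saline overlapped with nonescalating. Nonescalating withdrawal libraries had 357, 318, 888, 516 and 1453 CPM in set 2 and 98.4, 162 and 532 CPM in set 1. Saline withdrawal libraries had 519, 1002 and 459 CPM in set 2, against 240, 675 and 167 CPM in set 1. As for AI506816, the highest library was replicate 5 of nonescalating withdrawal in set 2.

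**Figure D1:**
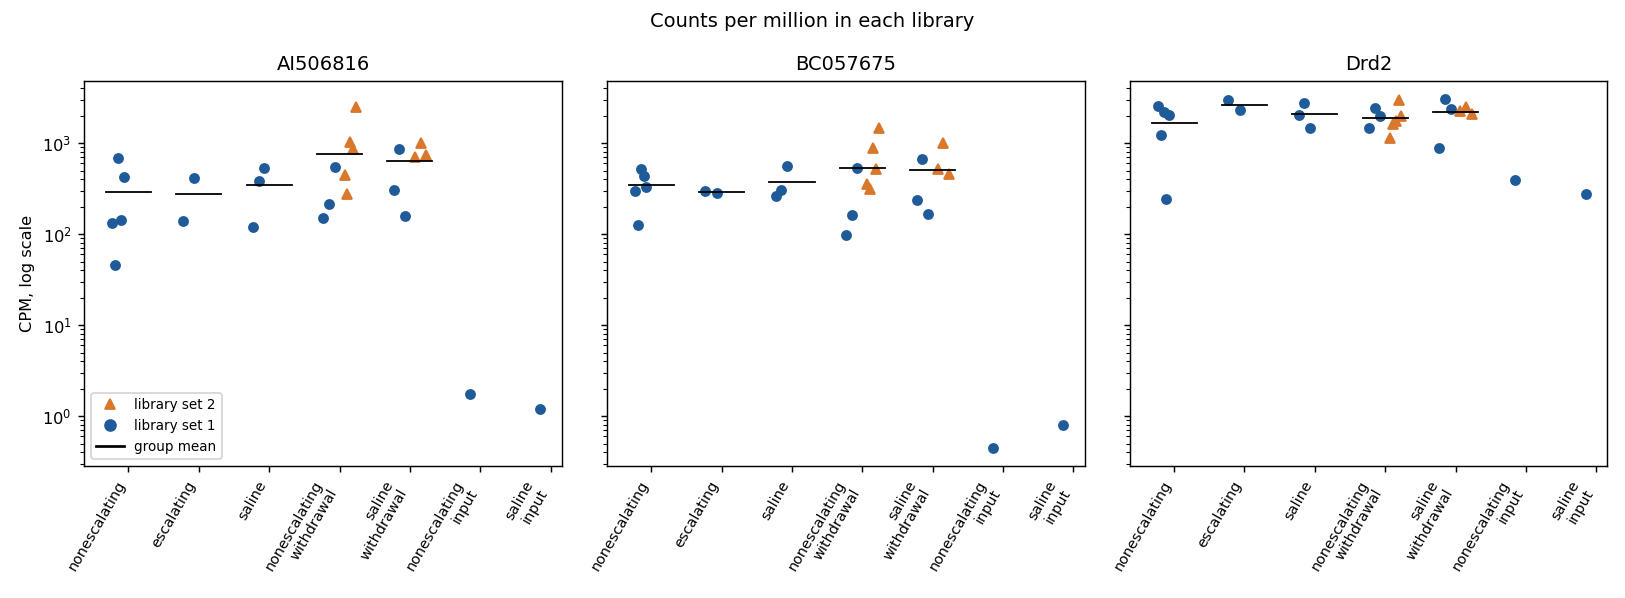
Level of AI506816, BC057675 and Drd2 in each of 26 libraries, in CPM on a log axis, by group, with triangles for library set 2, circles for set 1 and bars for group means. Both transcripts sat at 45.7 CPM or more in every immunopurified library and under 2 CPM in the inputs, whereas Drd2 was at 279 CPM or more in the inputs.

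In the inputs AI506816 was at 1.76 CPM (64 counts, 95% exact Poisson interval 1.36 to 2.25) in the nonescalating library and 1.20 CPM (6 counts, 0.441 to 2.62) in the saline library. BC057675 was at 0.441 CPM (16 counts, 0.252 to 0.716) and 0.802 CPM (4 counts, 0.218 to 2.05). These intervals cover counting error only, and they overlap between the inputs for each transcript. Counts in immunopurified libraries were 126 to 9028 for AI506816 and 347 to 7399 for BC057675. The lowest immunopurified library exceeded the highest input 25.9-fold for AI506816 and 123-fold for BC057675. As ratios of means, immunopurified over input, AI506816 stood at 361, BC057675 at 725 and Drd2 at 6.03. All 24 immunopurified libraries lay above both inputs for both transcripts, and 23 of 24 for Drd2. Over all genes with a count in any library, without a filter on low counts, 0.365% (78 of 21366) had all 24 above both inputs. Nothing is read from this contrast, since it chose the transcripts.

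Per kilobase of annotated exons, the median immunopurified level was 94.0 CPM for AI506816, against 0.394 and 0.268 CPM in the nonescalating and saline inputs. Drd2 had a median of 817 CPM per kilobase, against 154 and 109 in these inputs. The genes on either side of AI506816 were not chosen by their height over input, so nothing is read from their difference to it. Srpk2 had a median of 3.22 CPM per kilobase in immunopurified libraries, against 3.61 and 5.56 in the nonescalating and saline inputs. For Srpk2, 2 of 24 libraries lay above both inputs. Pus7 had a median of 0.989, against 1.67 and 1.09, and 6 of 24 libraries lay above both. BC057675 has no length in these tables and was left out of the comparison per length.

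The next values describe other genes on the contrast that chose the transcripts, and are not tested. Of 2152 genes with a mean of at least 100 CPM in immunopurified libraries, the highest ratios to input belonged, in order, to Pou2af1, BC057675, Irf4, AI506816, Gbp4, Vwf, Trp53inp1 and Ushbp1. Both transcripts had more than 3 counts in each input. Among the 14808 genes with at most 3 counts in each input, which therefore leave both out, the highest means in immunopurified libraries were those of Adnp (82.4 CPM), the cell cycle factor E2f2 (70.5 CPM), the transporter Abcc6 (49.7 CPM), the class II chaperone Cd74 (25.5 CPM) and the peptide precursor Edn3 (25.2 CPM). The next 5 were AW549542 (23.4 CPM), H2-Q7 (21.7 CPM), the muscle filament gene Des (21.5 CPM), BC002288 and Ddx60 (19.5 CPM). Of these 10, Adnp had a median of 0.352 CPM and no count in 9 of 24 libraries, while E2f2 and Abcc6 were counted in all. Over the 24 libraries E2f2 ran with AI506816 (r = 0.87, a description), while Abcc6 (r = -0.62), Edn3 (r = -0.69) and AW549542 (r = -0.73) ran against it.

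No treatment comparison called either transcript. In one edgeR quasi-likelihood fit of 24 immunopurified libraries with group and library set as terms, 0 of 15854 genes (0%) had an adjusted p under 0.05 in any of the 6 group comparisons. At an unadjusted p under 0.05, there were 1068 genes for nonescalating against saline, 1283 for escalating against saline, 1388 for escalating against nonescalating, 553 for nonescalating against saline withdrawal, 1052 for saline withdrawal against saline and 440 for nonescalating withdrawal against nonescalating. In nonescalating mice relative to saline mice, the log2 fold change was -0.29 (SE 0.74, adjusted p = 0.978) for AI506816 and -0.15 (SE 0.53, adjusted p = 0.990) for BC057675. Without saline replicate 4 these turned to 0.14 and 0.24. Escalating against saline gave -0.33 (SE 0.94, adjusted p = 0.972) for AI506816 and -0.39 (SE 0.68, adjusted p = 0.935) for BC057675. Escalating against nonescalating gave -0.045 (SE 0.86) for AI506816 and -0.24 (SE 0.62) for BC057675. The standard errors exceed each of these differences.

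After withdrawal, nonescalating libraries averaged 755 ± 780 CPM of AI506816 (SD, n = 8) and saline libraries 630 ± 328 CPM (SD, n = 6). BC057675 averaged 541 ± 444 CPM in nonescalating and 510 ± 304 CPM in saline withdrawal libraries. The log2 fold changes of the fit were -0.066 (SE 0.57) and -0.15 (SE 0.41), each with an adjusted p of 1. Within set 2 alone they were 0.37 and 0.15, the opposite sign, with replicate 5 of nonescalating withdrawal (2531 and 1453 CPM) among the libraries. In set 1 the means were lower in nonescalating than in saline withdrawal libraries. They were 305 and 440 CPM for AI506816, and 264 and 361 CPM for BC057675. Saline withdrawal against saline gave 0.10 (SE 0.76, adjusted p = 0.999) for AI506816 and -0.24 (SE 0.55, adjusted p = 0.991) for BC057675. Nonescalating withdrawal against nonescalating gave 0.32 (SE 0.71) and -0.25 (SE 0.50), each with an adjusted p of 1. Without the 3 libraries that stood apart, AI506816 had -0.12 in saline and -0.043 in nonescalating mice for withdrawal against none. The cocaine effect with withdrawal minus that without was 0.22 (SE 0.94) for AI506816 and -0.0076 (SE 0.67) for BC057675, with an adjusted p of 1 for both and 0 of 15854 genes (0%) called, 776 at an unadjusted p under 0.05. On simulated counts over 15236 genes, the comparison of the withdrawal groups recovered 60% of genes changed by 2 on the log2 scale. It recovered 8% of those changed by 1, so changes of the smaller size were seldom detectable. The changed genes were drawn at random from genes above a floor on mean CPM, each with its own spread. These shares therefore leave out low genes and do not hold for either transcript in particular. Of the 12 group differences of both transcripts, 9 turned their sign when 1 library was left out, and none was called. The libraries concerned were saline 1 and 4, nonescalating 2, 3 and 5, escalating 1, and after withdrawal saline 2 and 3 and nonescalating 1 and 2 of set 1, and saline 2 and nonescalating 1 and 2 of set 2.

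Both transcripts averaged higher in set 2 than in set 1, and the difference missed the threshold. Among withdrawal libraries, AI506816 averaged 949 ± 689 CPM in set 2 (SD, n = 8) and 372 ± 279 CPM in set 1 (SD, n = 6). BC057675 averaged 689 ± 393 CPM in set 2 and 312 ± 234 CPM in set 1. Of the 8 set 2 libraries, 4 lay above all 6 of set 1 for AI506816 and 3 for BC057675. The log2 fold change was 1.44 for AI506816 (SE 0.60, unadjusted p = 0.0236, adjusted p = 0.275 by edgeR) and 1.24 for BC057675 (SE 0.42, unadjusted p = 0.00585, adjusted p = 0.159 by edgeR). By their p they ranked 1362 and 584 of 15854 genes, of which 0.915% were called, 25 higher and 120 lower in set 2, and 2138 had an unadjusted p under 0.05. Replicate 2 of saline withdrawal in set 1 and replicate 5 of nonescalating withdrawal in set 2 bear on this: without the first, BC057675 had 1.60 (adjusted p = 0.0450) and AI506816 1.86 (adjusted p = 0.130). Without the second, BC057675 had 0.93 (adjusted p = 0.302) and AI506816 1.01 (adjusted p = 0.458). Without all 3 libraries that stood apart, the values were 1.04 for AI506816 and 0.96 for BC057675. DESeq2 called BC057675, at 1.27 with an adjusted p of 0.0448.

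Drd2 was nearly level between the sets. In withdrawal libraries it averaged 2039 ± 562 CPM in set 2 (SD, n = 8) and 2038 ± 780 CPM in set 1 (SD, n = 6), which the fit put at 0.081 on the log2 scale (SE 0.33, adjusted p = 0.953). Adora2a had -0.52 (SE 0.36, adjusted p = 0.576) and Penk 0.26 (SE 0.37, adjusted p = 0.827), and Drd1 had 0.24 (SE 0.52, adjusted p = 0.900). Of the 7 D2 neuron genes, 3 were above 0 and 4 below, with a median of -0.43, and none was called.

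The vascular genes ran the other way. All 19 had a negative log2 fold change in set 2, with a median of -2.17, against a median of -0.087 over all genes tested. Of the 19, 8 were called lower, against 120 of all 15854 genes tested. In the endothelial list of 10, 6 were called, among them the vascular growth factor receptors Flt1 at -2.18 (SE 0.44, adjusted p = 0.0116) and Kdr at -2.62 (SE 0.46, adjusted p = 0.00215) and the junction gene Esam at -3.40 (SE 0.79, adjusted p = 0.0337). Of 9 pericyte and smooth muscle genes, 2 were called, Vtn and the pericyte regulator Rgs5, with Rgs5 at -3.62 (SE 0.48, adjusted p = 0.000123). The smooth muscle gene Tagln had -0.30 (SE 1.06). In withdrawal libraries Flt1 averaged 252 ± 128 CPM in set 2 (SD, n = 8) and 1119 ± 681 CPM in set 1 (SD, n = 6), and 5 of 8 set 2 libraries lay below all 6 of set 1. The summed level of the 19 genes was 460 to 2602 CPM in set 2 and 2187 to 10321 CPM in withdrawal libraries of set 1. Neither the difference between the transcripts and Drd2 nor that between the transcripts and the vascular genes was itself tested.

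**Figure D2:**
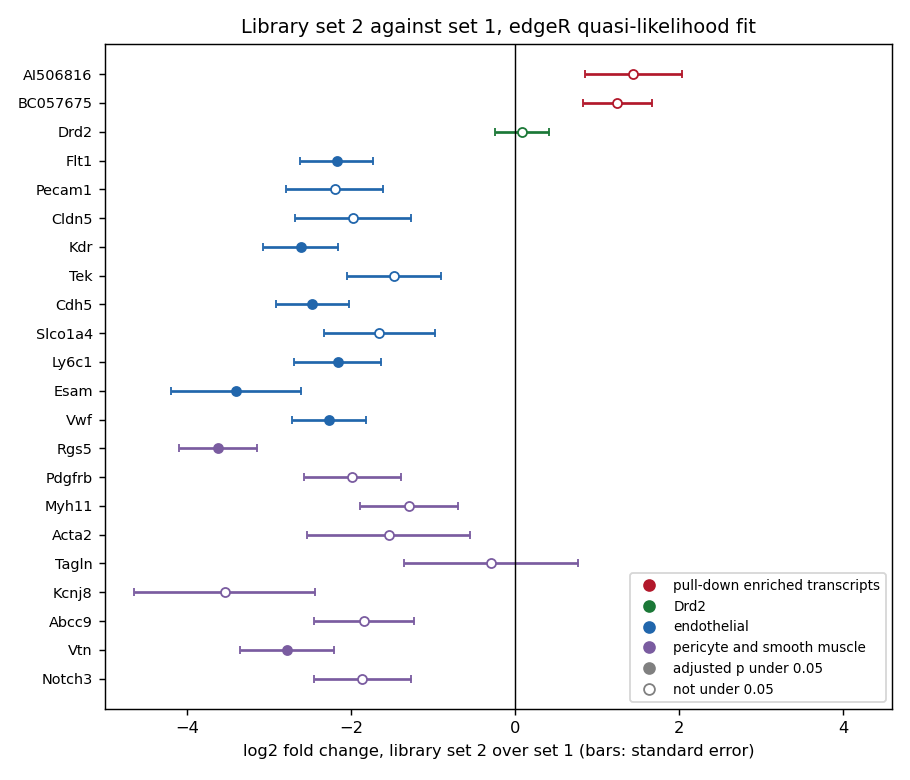
Log2 fold change of library set 2 over set 1 with its standard error for AI506816, BC057675, Drd2 and 19 vascular genes, with filled points where the edgeR adjusted p was under 0.05. The transcripts lie at 1.44 and 1.24, Drd2 at 0.081 and every vascular gene below 0, with 8 of 19 filled. Over all 15854 genes tested, 120 were called lower.

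Both transcripts rose and fell together from library to library. Over the 24 immunopurified libraries, log2 CPM of AI506816 and BC057675 had Pearson's r = 0.849 and Spearman's rho = 0.850, each with a permutation p of 1e-05, the smallest that 100000 resamples can give, and an adjusted p of 3.5e-05 over 7 relations. Within set 2 r was 0.926 (n = 8, exact permutation test, adjusted p = 0.00139), and within set 1 it was 0.724 (n = 16, permutation test, adjusted p = 0.0106). With the 2 libraries farthest from the median of BC057675 left out, r was 0.824, and without the 3 libraries that stood apart it was 0.865. After group and set means were removed it was 0.834. In the relations below, the 2 farthest libraries are those farthest from the median of Drd2, the vascular score or the share concerned. The ratio of AI506816 to BC057675 counts still ranged between 0.327 and 1.74, with a median of 1.25. It was above 1 in 15 libraries, below 1 in 8, and 1 library had the same 1833 counts of each.

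Neither followed Drd2. AI506816 and Drd2 had r = 0.292 and rho = 0.162 (permutation p = 0.163 and 0.446, adjusted p = 0.190 and 0.521, n = 24), with r = 0.425 within set 2 and 0.278 within set 1. BC057675 and Drd2 had r = 0.107 and rho = 0.0861 (permutation p = 0.609 and 0.689, adjusted p = 0.609 and 0.689), with r = 0.354 within set 2 and 0.00786 within set 1. With the 2 farthest libraries left out, r was 0.205 for AI506816 and 0.217 for BC057675, and without the 3 that stood apart 0.244 and 0.298. A p above the threshold does not show that the levels are unrelated.

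Against the vascular score, the mean log2 CPM of the 19 genes, the transcripts ran downwards. AI506816 had r = -0.809 and rho = -0.831, each with a permutation p of 1e-05 and an adjusted p of 3.5e-05. Within set 2 r was -0.777 (n = 8, exact permutation test, adjusted p = 0.0513) and within set 1 it was -0.657 (n = 16, permutation test, adjusted p = 0.0198). BC057675 had r = -0.659 and rho = -0.647 (permutation p = 0.00054 and 0.00089, adjusted p = 0.00126 and 0.00208). Within set 2 its r was -0.581 (n = 8, exact permutation test, adjusted p = 0.311) and within set 1 -0.364 (n = 16, permutation test, adjusted p = 0.289), so for BC057675 the relation was not past the threshold in either set. After group and set means were removed, BC057675 also lost its call (r = -0.438, adjusted p = 0.0586), while AI506816 had r = -0.682 (adjusted p = 0.00119). With the 2 farthest libraries left out, r was -0.766 for AI506816 and -0.576 for BC057675, and without the 3 libraries that stood apart it was -0.732 and -0.612. Each of the 19 genes had a negative r with both transcripts, between -0.84 and -0.31 for AI506816 and between -0.77 and -0.11 for BC057675. Of 15835 genes outside the list, AI506816 had the 53rd lowest r with the score and BC057675 the 469th lowest. The median over these genes was 0.076.

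A technical measure also moved with the levels. The share of alignment records from reads with several alignments, which were counted for no gene, was 6.52% to 41.2% in immunopurified libraries, against 8.05% and 6.51% in the nonescalating and saline inputs. In withdrawal libraries it was 19.9% to 41.2% in set 2 (median 36.0%) and 13.7% to 36.7% in set 1 (median 19.1%). With this share, a relation examined after the data were seen, AI506816 had r = 0.949 and rho = 0.955, and BC057675 r = 0.803 and rho = 0.807, each with a permutation p of 1e-05, also after adjustment over 2 such relations. Within set 2 r was 0.861 for AI506816 and 0.777 for BC057675 (n = 8, exact permutation tests, adjusted p = 0.00466 and 0.0234). Within set 1 r was 0.945 and 0.693 (n = 16, permutation tests, adjusted p = 2e-05 and 0.00338). With the 2 farthest libraries left out, r was 0.952 and 0.741, and without the 3 that stood apart 0.946 and 0.855. AI506816 had the highest r with this share of all 15854 genes tested and BC057675 the 31st highest, Drd2 ranked 2097 with r = 0.39, and the median over all genes was -0.057. What these reads are is not given in the files, and their part in the levels, in the set difference and in the relations above was not tested.

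The share of reads outside annotated features had r = -0.527 and rho = -0.435 with AI506816 (permutation p = 0.0084 and 0.0339, adjusted p = 0.0147 and 0.0593). That relation lost its call without the 2 farthest libraries, where r was -0.338 (adjusted p = 0.219). After group and set means were removed, r was -0.501 and rho -0.500 (permutation tests, adjusted p = 0.0302 and 0.0322). Without the 3 that stood apart r was -0.535 (adjusted p = 0.0215), but rho was -0.342 (permutation test, adjusted p = 0.221). Within set 2 r was -0.268 (n = 8, exact permutation test, adjusted p = 0.628) and within set 1 -0.584 (n = 16, permutation test, adjusted p = 0.0437). By rank, set 1 alone was not past the threshold (rho = -0.526, permutation test, adjusted p = 0.0904). For BC057675 r was -0.303 and rho -0.283 (permutation p = 0.151 and 0.179, adjusted p = 0.190 and 0.251), and r was -0.441 (adjusted p = 0.0635) without the 3 that stood apart.

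**Figure D3:**
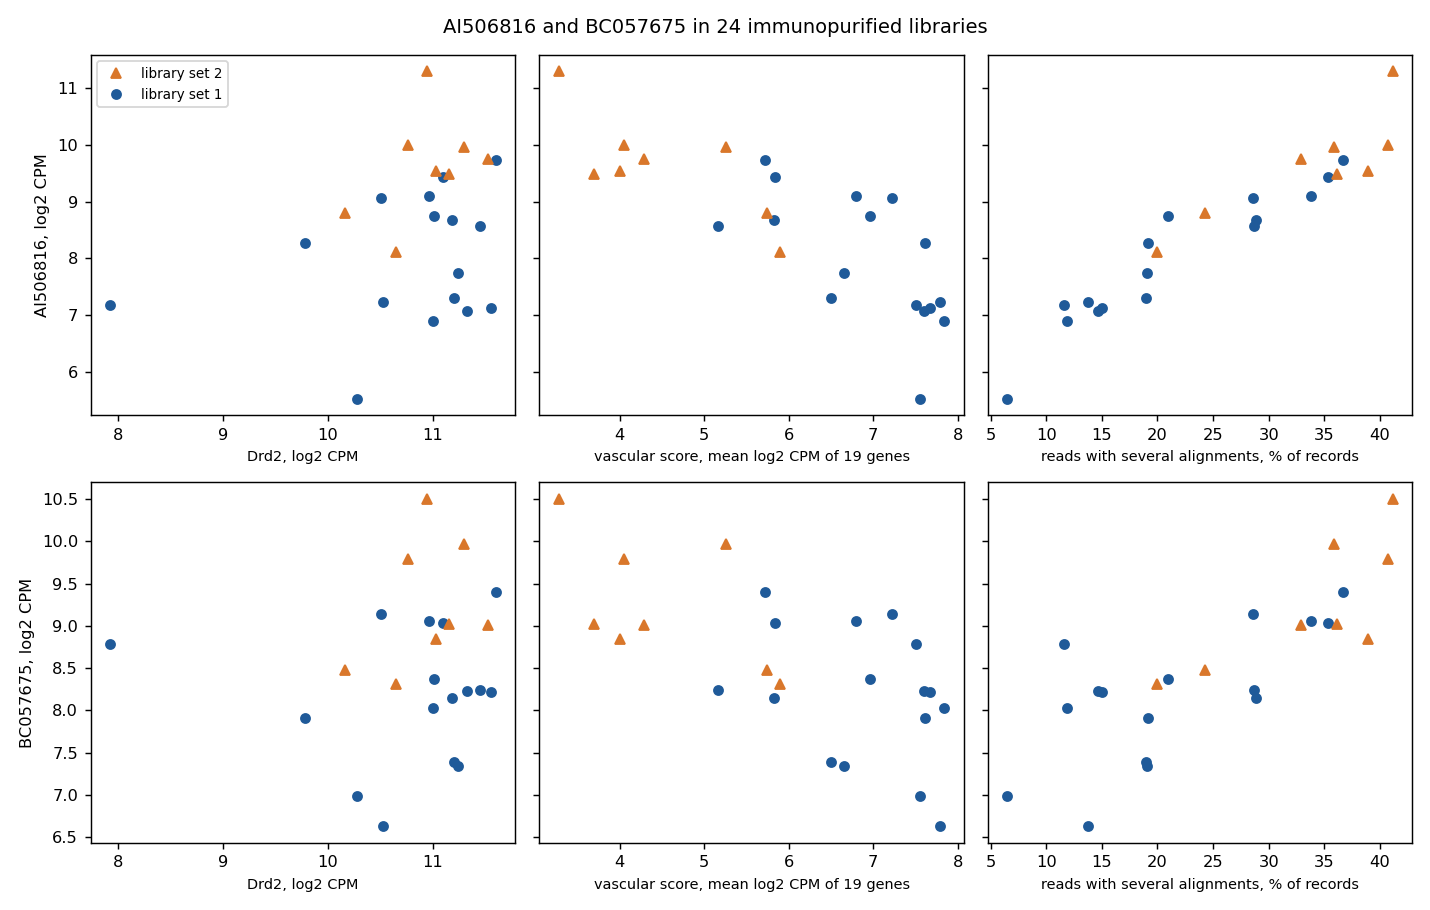
Log2 CPM of AI506816 (top row) and BC057675 (bottom row) in 24 immunopurified libraries against log2 CPM of Drd2, the vascular score and the share of reads with several alignments, with triangles for set 2 and circles for set 1. Points are scattered against Drd2, fall with the vascular score (r = -0.809 and -0.659) and climb with the share (r = 0.949 and 0.803).

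The genes whose course was most like that of the transcripts were largely shared by both. Out of 15853 genes, those with the highest r with AI506816 were Trp53inp1, a stress response gene induced by p53 (r = 0.96), the cell cycle gene Ccnd2 (cyclin D2, r = 0.95), BC019819 (r = 0.91), the pantothenate kinase Pank3 (r = 0.90) and the ethanolamine kinase Etnk1 (r = 0.88). BC057675 ranked 14th. For BC057675 they were Trp53inp1 (r = 0.91), Ccnd2 (r = 0.85), AI506816 (r = 0.85), BC019819 (r = 0.83) and Pank3 (r = 0.81). These are descriptions over 24 libraries that share depth, scaling and the technical measure above, with which Trp53inp1 had r = 0.89 and Ccnd2 r = 0.92.

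These companions differed in their level over input. Trp53inp1 ran between 18.9 and 818 CPM in immunopurified libraries, against 5.18 and 5.21 CPM in the nonescalating and saline inputs. Ccnd2 ran between 61.3 and 1571 CPM, against 27.4 and 30.3 CPM in these inputs. Etnk1, at 212 to 935 CPM, enclosed its inputs at 590.2 and 592 CPM, and BC019819, at 10.9 to 208 CPM, enclosed its inputs at 15.9 and 60.5 CPM. A course like that of AI506816 was thus also found in genes whose input level lay within the range of the immunopurified libraries.

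**Figure D4:**
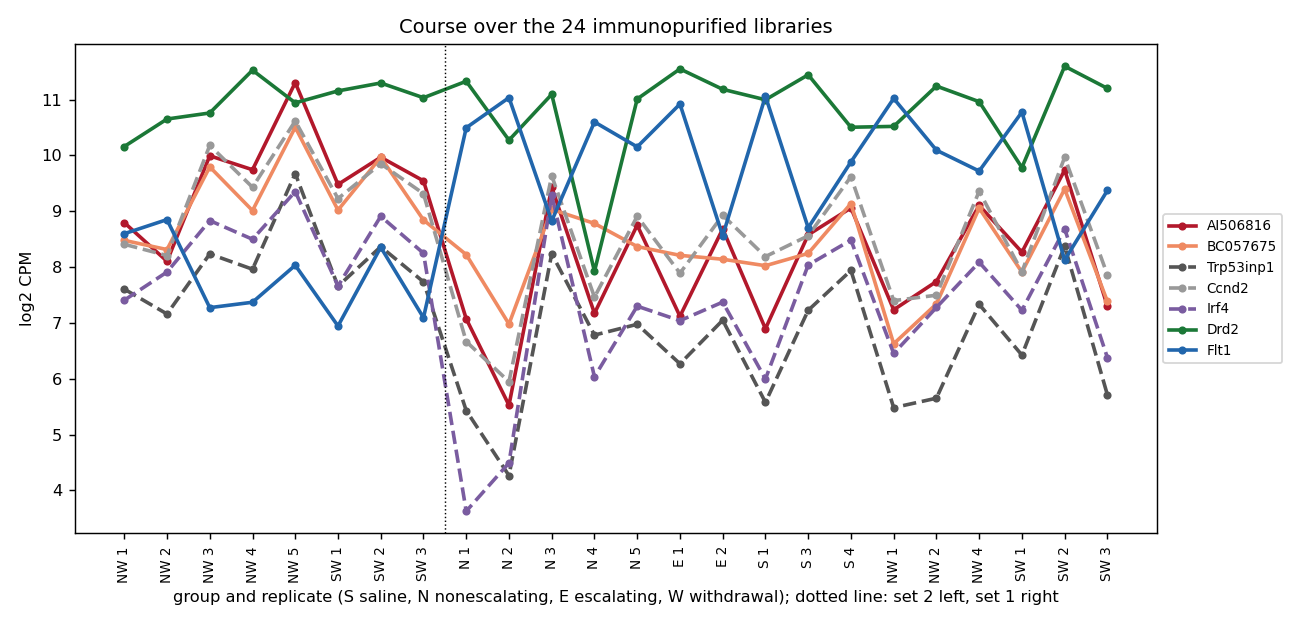
Log2 CPM of AI506816, BC057675, Trp53inp1, Ccnd2, Irf4, Drd2 and the endothelial gene Flt1 in each immunopurified library, with set 2 left of the dotted line and set 1 right of it. The first 5 genes tend to move up and down together, though Irf4 follows BC057675 (r = 0.69) less closely than AI506816 (r = 0.87). Flt1 tends to run against the 5 genes, while Drd2 is lowest in nonescalating replicate 4 (243 CPM).

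Since Pou2af1 and Irf4 stood beside the transcripts in ratio to input, a list of 16 genes of the B lymphocyte and plasma cell lineage was looked at. It was drawn up after these values were seen, so it has no test. The transcription factor Irf4 averaged 245 CPM in immunopurified libraries, against 0.689 and 0.200 CPM in the nonescalating and saline inputs, and had r = 0.87 with AI506816 and 0.69 with BC057675. The coactivator Pou2af1 averaged 136 CPM, against 0.110 CPM in the nonescalating input and no count in the saline input, with r = 0.77 and 0.49. Fam46c averaged 41.4 CPM, against 1.24 and 0.200 CPM. Xbp1, a factor of the secretory pathway in many cells, averaged 49.9 CPM, against 50.2 and 55.5 CPM.

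The list was split in level. Prdm1, a regulator of plasma cells, averaged 16.6 CPM, against 1.57 and 0.601 CPM in the nonescalating and saline inputs. The adaptor of B cell receptor signalling Blnk averaged 23.5 CPM, against 0.0551 and 1.20 CPM in these inputs. The octamer factor Pou2f2 averaged 13.5 CPM, against 7.64 CPM (277 counts) in the nonescalating input and 10 counts in the saline input. The median over immunopurified libraries was 0 for 8 of 16 genes, including the B cell surface genes Cd79a, Cd79b and Ms4a1, the B cell factor Pax5 and the immunoglobulin gene Ighg1, and 7 of 16 averaged above 10 CPM. Cd79b averaged 0.994 CPM and had no count in 17 of 24 libraries. The summed level of the 16 genes was 142 to 1894 CPM in immunopurified libraries (median 395 CPM), against 59.9 to 65.6 CPM in the inputs. This sum holds Irf4 and Pou2af1 (means of 245 and 136 CPM), whose height over input prompted the list. Most of the input sums was Xbp1 (50.2 and 55.5 CPM). The height of the sum over input therefore follows from the choice and is not read as a trait of the lineage. In withdrawal libraries the sum was 330.1 to 1894 CPM in set 2 and 244 to 923 CPM in set 1.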

How the data were processed

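RNA was measured in 24 immunopurified and 2 input libraries. The authors deposited raw counts per gene symbol, 1 file per library; STAR 2.0.0e, HTSeq and build mm10 are named in the submitters' processing notes, while the annotation and the use of strand are not given in the sources at hand, so reads of overlapping or near-identical genes may be mixed. The 5 HTSeq summary rows stayed out of library sizes. Groups follow the sample titles. The description field of the 5 nonescalating libraries also carries withdrawal, which was tried as an alternative.

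Tests used edgeR 4.0.16 in R 4.3.3: a robust quasi-likelihood fit of 24 libraries with TMM factors, a minimum count of 10 (filterByExpr), group and library set as terms, and Benjamini-Hochberg adjustment over 15854 genes at 0.05. The standard error is the log2 fold change over the root of F. The set term rests on the withdrawal groups alone. Levels are CPM, and log2 CPM has a prior count of 2. Depth of 1.53 to 17.4 M counts (M for 1e6) makes 3 counts worth 0.198 to 2.19 CPM. Relations were tested two-sided with scipy 1.17.1, by 100000 permutations, or by exact enumeration under 10 libraries. Alternatives included DESeq2 1.42.0 and limma 3.58.1 (voom). The fit was tested on simulated data. Within groups, no pair of 57 agreed within sampling noise (chi-square per degree of freedom at least 19.0).

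Named genes were the 2 transcripts, Drd2, Adora2a, Penk, Drd1, the vascular lists, the 5 genes most correlated with each transcript, genes next to AI506816, and the 10 highest genes with at most 3 counts in each input. The 16 lineage genes (1 further gene is not reported here), the genes of highest ratio to input and the 3 libraries left out together were added after values were seen. Members and lists were chosen with earlier results of these data known. Of both members, 1 matched GENCODE M21 and RefSeq.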

Additional observations from a re-analysis of the deposited data

Results flagged for a closer look

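Both flags below mark a library whose gap to its nearest neighbour is a large part of its group's range (Dixon's test at the 95% level). In all, 18 group and measure combinations were examined, of which such a test flags about 5% by chance. Gaps were taken on unlogged values, with both library sets of a group together. Replicate 5 of nonescalating withdrawal in set 2 had 2531 CPM of AI506816, against 1020 CPM in the next highest of the 8 libraries of that group. On the log2 scale these were 11.3 and 9.99, with 7.24 in the lowest library of the group, a smaller part of the range. Replicate 5 was the shallowest immunopurified library, with 1.53 M gene counts (M for 1e6), and had the highest share of reads with several alignments, 41.2%. The part of depth and of this share in the level was not tested. The vascular genes summed to 9491 CPM in replicate 1 of saline withdrawal in set 1, against 3750 CPM in the next highest of the 6 libraries of that group.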

How the results depend on the processing

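Of the 7 comparisons for each transcript, only BC057675 between library sets crossed the threshold under an alternative: DESeq2 gave 1.27 (adjusted p = 0.0448), and leaving out replicate 2 of saline withdrawal in set 1 gave 1.60 (adjusted p = 0.0450). Signs turned for differences that no fit called, and the cause was not tested. Without the set term, nonescalating against saline withdrawal gave 0.28 for AI506816 and 0.10 for BC057675, and BC057675 gave 0.44 for saline withdrawal against saline and 0.69 for nonescalating withdrawal against nonescalating. Set 2 alone gave 0.37 and 0.15 for nonescalating against saline withdrawal. Limma voom gave -0.20 for AI506816 in saline withdrawal against saline. Without the 3 libraries that stood apart, AI506816 had -0.12 for saline withdrawal against saline and -0.043 for nonescalating withdrawal against nonescalating.

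With the replicate number as a block, escalating against saline gave 0.38 for AI506816 and 0.090 for BC057675, escalating against nonescalating gave 0.91 and 0.29, and BC057675 gave 0.13 for saline withdrawal against saline. No call changed. The shared numbers were not shown to pair libraries: deviations of same-numbered libraries had a median r of 0.085 (over 0.1 in 10 of 25 pairs), and those of other numbers -0.014.

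Leaving out 1 library at a time gave, for AI506816 and BC057675 in turn, -0.87 to 0.14 and -0.34 to 0.24 (nonescalating against saline), -1.31 to 0.26 and -0.58 to -0.0066 (escalating against saline), -1.06 to 0.55 and -0.45 to -0.044 (escalating against nonescalating), -0.43 to 0.35 and -0.49 to 0.20 (nonescalating against saline withdrawal), -0.59 to 0.53 and -0.83 to 0.14 (saline withdrawal against saline), 0.012 to 0.98 and -0.75 to 0.039 (nonescalating withdrawal against nonescalating), and 1.01 to 1.86 and 0.93 to 1.64 (set 2 against set 1).

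Among relations, those of the vascular score lost their call in set 2 alone (r = -0.777 for AI506816 and -0.581 for BC057675), and BC057675 also in set 1 alone (r = -0.364) and after group and set means were removed (r = -0.438, adjusted p = 0.0586). Fewer libraries enter each single set, and calls of relations are judged here by Pearson's r. AI506816 with reads outside features lost its call in set 2 alone (r = -0.268) and without the 2 farthest libraries (r = -0.338). By Spearman's rho that relation had no call over all 24 libraries (permutation test, adjusted p = 0.0593). Apart from single libraries left out, the other 178 alternatives tried kept direction and side of the threshold. Low genes are thinly counted in the shallow libraries, whereas both transcripts had at least 126 counts in every immunopurified library.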
